A study of Homo sapiens with 6 samples.

Results

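S100 proteins and annexins are calcium-dependent proteins that often bind each other, and 10 of their genes were followed here: S100A4, S100A6, S100A10, S100A11, S100A13, S100A16, ANXA1, ANXA2, ANXA5 and ANXA6. They were chosen by name from the 58735 genes of the count table, 6 from the S100 family and 4 from the annexin family, and each name matched 1 gene. RNA was sequenced from LX-2, an established human line of hepatic stellate cells, the liver cells that lay down scar matrix. Every one of the 6 libraries came from cells of wild-type genotype transfected with siRNA to silence NSUN2, whose product methylates cytosines in RNA. In 1 group of 3 libraries nothing was added (called untreated below). In the other 3 libraries the cytokine TGF-β1, which drives stellate cells to become scar-forming myofibroblasts, was given at 5 ng/ml for 24 hours, starting 48 hours after transfection. The design text of the series names NAT10 for the siRNA where the sample labels say NSUN2, and groups were taken from the labels. Cells lacking the siRNA were not analysed here, and the comparison is therefore between TGF-β1 and no TGF-β1 in siRNA cells and says nothing of the siRNA itself. The labels call the replicates biological without naming separate cultures, so p-values measure the spread between these libraries.

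S100 proteins are small proteins with a pair of EF-hand calcium-binding loops. Most work as dimers that change shape when calcium binds and then grip a target protein, and several are also released and act on cell-surface receptors. Annexins bind acidic phospholipids of membranes when calcium rises, and they organise membrane domains, repair torn plasma membrane and take part in vesicle traffic. The families meet in fixed pairs: an S100A10 dimer holds the N-terminal tails of a pair of annexin A2 molecules, and S100A11 binds the N-terminal tail of annexin A1 in the same way. S100A6 is known as a gene of activated stellate cells and other fibroblast-like cells.

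The libraries held 25828504 to 30034762 counts. NSUN2, the siRNA target, stood at 81.4, 82.9 and 84.4 CPM (counts scaled to a common library size) in untreated libraries and 102.7, 97.0 and 101.9 CPM with TGF-β1, a log2 fold change of 0.28 (edgeR adjusted p = 1.57e-06). Of 13 stellate cell markers, 10 passed the filter on low counts, and LRAT and DCN had no counts. Of the 10, 5 were higher and 3 lower (ACTA2, HAND2 and THY1), where 20.2% of all tested genes were called higher and 18.7% lower. The summed level of the 13 markers was 2639 to 2681 CPM without TGF-β1 and 5134 to 5782 CPM with it. COL1A1 alone made up 1418 and 3993 CPM of this on average. Of the markers of other liver cells, 6 were tested. The summed levels were 23.6 to 27.4 CPM in untreated cells and 21.3 to 23.2 CPM with TGF-β1 for 7 hepatocyte genes, nearly all of it SERPINA1, with APOB, CYP3A4 and TTR at 0. They were 11.8 to 14.8 and 14.99 to 18.0 CPM for 6 macrophage genes, with CD14 lower and CSF1R higher. For 6 endothelial genes they were 1.82 to 2.72 and 1.58 to 2.26 CPM, with CLEC4G at 0, and for 4 cholangiocyte genes 2.69 to 3.45 and 3.94 to 5.37 CPM, with KRT7 higher and CFTR at 0. Whether these genes have a part in the results below was not tested.

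With TGF-β1 the members divided. S100A6 fell by 0.95 on the log2 scale, ANXA1 by 0.82, ANXA2 by 0.50 and S100A10 by 0.29, whereas S100A11 rose 1.42-fold and ANXA6 1.11-fold. S100A16 rose by a small amount that several alternatives did not call, ANXA5 and S100A13 did not pass the test, and S100A4 was too low to be tested. Of the 9 members that passed the filter on low counts, 3 were called higher and 4 lower at an adjusted p under 0.05 (edgeR quasi-likelihood test, Benjamini-Hochberg over 17215 genes), where 20.2% of all tested genes were called higher, 18.7% lower and 38.9% in either direction. The groups of 3 libraries did not overlap for 6 of these 9 members, against 47.4% of all tested genes. In bulk RNA, fewer cells expressing a gene and less RNA per cell cannot be told apart. The median log2 fold change of all tested genes was -0.0082, and it moved by -0.12 when libraries were scaled by their totals alone; under that scaling 1 member (S100A11) was called higher and 5 lower, ANXA5 among the latter, where 11.7% of all tested genes were called higher and 31.1% lower.

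**Figure D1:**
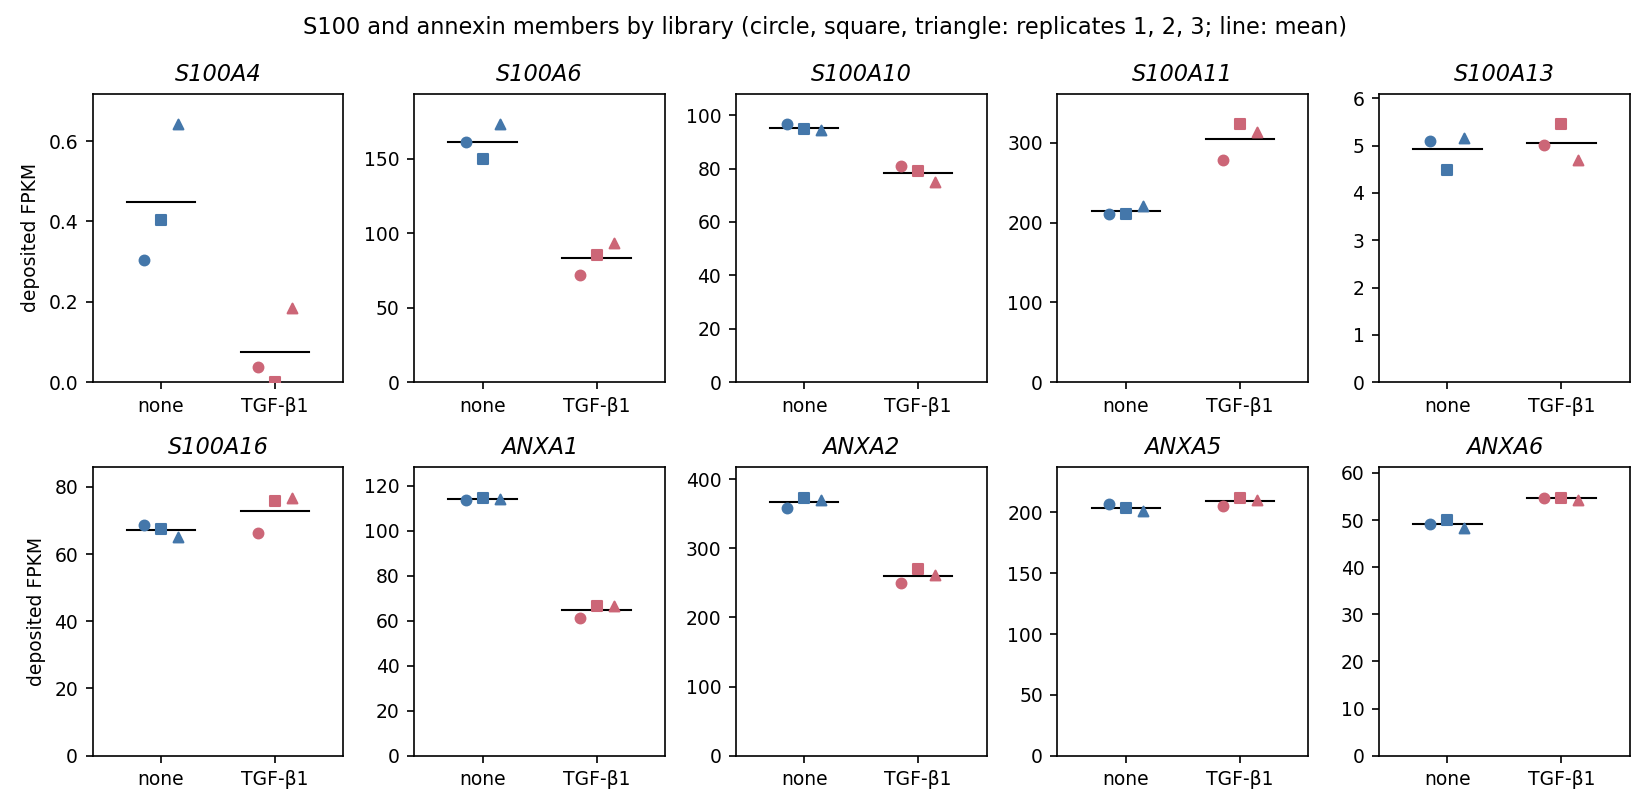
Deposited FPKM of each member (vertical axes from 0, each panel on its own scale) in the 3 untreated and 3 TGF-β1 libraries, with a line at the group mean. S100A6, S100A10, ANXA1 and ANXA2 sit lower in all 3 TGF-β1 libraries, S100A11 sits higher in all 3, and ANXA5 and S100A13 overlap between groups.

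Among the S100 genes the largest tested change was in S100A6 (calcyclin, ENSG00000197956, chromosome 1, 153534599 to 153536244, minus strand, hg38), which is expressed by proliferating and fibroblast-like cells. Its level was 160.9, 150.5 and 173.4 CPM in untreated replicates 1, 2 and 3 and 71.7, 85.5 and 93.3 CPM in TGF-β1 replicates 1, 2 and 3. Every TGF-β1 library lay far below every untreated one, and replicate 1 was the lowest. The log2 fold change was -0.95 ± 0.11 (SE; edgeR quasi-likelihood adjusted p = 0.00186), a level 1.93-fold lower. Without TGF-β1 replicate 1 it was -0.85 (edgeR adjusted p = 1.01e-15). Leaving out each library in turn gave -1.03 to -0.85, with edgeR adjusted p-values of up to 0.0181. An antisense gene covers 2.37% of the exonic bases of S100A6.

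S100A10 (p11, ENSG00000197747, chromosome 1, 151982915 to 151994390, minus strand) differs from the rest of its family in that its loops no longer bind calcium, and it is held in the annexin A2 complex. It measured 153.0, 150.9 and 150.6 CPM without TGF-β1 and 128.7, 125.5 and 118.7 CPM with it. The groups did not overlap, and the untreated libraries lay within a few CPM of each other. The change was -0.29 ± 0.04 on the log2 scale (edgeR adjusted p = 7.46e-08).

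S100A11 (calgizzarin, ENSG00000163191, chromosome 1, 152032506 to 152047907, minus strand), a partner of annexin A1, moved the other way. It measured 147.1, 148.3 and 154.6 CPM without TGF-β1 and 195.1, 226.2 and 219.0 CPM with it, so that all 3 treated libraries lay above all 3 untreated ones. The log2 fold change was 0.51 ± 0.04 (edgeR adjusted p = 2.79e-12), and it was 0.57 without TGF-β1 replicate 1, the lowest of the treated libraries. Of the copies of S100A11 in the genome, S100A11P2 had 10 counts over the 6 libraries and S100A11P1 had 6. Adding them to S100A11 left its log2 fold change at 0.51.

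S100A16 (ENSG00000188643, chromosome 1, 153606886 to 153613145, minus strand), a widely expressed member, measured 120.1, 118.6 and 113.9 CPM without TGF-β1 and 116.1, 132.7 and 133.8 CPM with it. TGF-β1 replicate 1 lay among the untreated libraries, so the groups overlapped. The log2 fold change was 0.12 ± 0.05 (edgeR adjusted p = 0.0342). That call was not made with limma-voom (adjusted p = 0.0540), with the DESeq2 Wald test (0.0907), with library totals alone (a log2 fold change of -4.66e-04) or without any single library other than TGF-β1 replicate 1 (0.0501 to 0.192), and without TGF-β1 replicate 1 the value was 0.19 (adjusted p = 4.48e-04).

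S100A13 (ENSG00000189171, chromosome 1, 153618787 to 153631360, minus strand), which helps in the release of fibroblast growth factor FGF1, had the lowest level per length of the tested members. It measured 11.6, 10.3 and 11.8 CPM without TGF-β1 and 11.4, 12.4 and 10.7 CPM with it, and the groups overlapped. The log2 fold change was 0.04 ± 0.11 (edgeR adjusted p = 0.842), with a 95% interval of -0.19 to 0.27. Other genes cover 33.5% of its exonic bases. AL162258.1 on the same strand covers 24.2% and S100A1 on the opposite strand 10.6%, and how such reads were assigned was not analysed here.

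S100A4 (fibroblast-specific protein, ENSG00000196154, chromosome 1, 153543613 to 153550136, minus strand), which binds non-muscle myosin and is widely used as a fibroblast marker, was barely expressed. It had 10, 13 and 19 counts in the untreated libraries and 1, 0 and 5 with TGF-β1, all lower, and it did not pass the filter on low counts. The normalised level was 6.18-fold lower with TGF-β1, and the exact 95% interval, for counting error alone, ran from 2.62 to 17.8. A two-sided exact permutation test over the 6 libraries gave p = 0.1, the smallest that 3 against 3 can give. With no filter, edgeR's quasi-likelihood test gave an adjusted p of 0.0162 and the DESeq2 Wald test one of 0.0385, while limma fitted to unfiltered log2 FPKM gave a log2 difference of -0.43 with an adjusted p of 0.0604.

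The annexins included the most abundant member by counts, ANXA2 (ENSG00000182718, chromosome 15, 60347134 to 60402883, minus strand), whose protein sits at the plasma membrane with S100A10 and binds plasminogen and its activator. It measured 3248, 3398 and 3364 CPM without TGF-β1 and 2268, 2454 and 2370 CPM with it. No TGF-β1 library came near the untreated range. It changed by -0.50 ± 0.03 on the log2 scale (edgeR adjusted p = 8.40e-19), or 1.41-fold lower.

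ANXA2 has a processed copy elsewhere in the genome, ANXA2P2 (ENSG00000231991, chromosome 9, 33624274 to 33625293, plus strand), whose sequence matches 98.4% of the 1017 coding bases of the principal ANXA2 transcript. The first 90 coding bases, which encode the annexin tail that S100A10 grips, are shown because reads from such a stretch can hardly be assigned to 1 of the 2 genes. Capitals mark the 1 base that differs.
ANXA2: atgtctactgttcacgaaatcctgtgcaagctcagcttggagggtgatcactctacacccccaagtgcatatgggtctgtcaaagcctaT
ANXA2P2: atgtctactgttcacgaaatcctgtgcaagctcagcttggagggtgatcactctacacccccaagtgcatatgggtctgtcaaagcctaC

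ANXA2P2 was given 31802 counts over the 6 libraries, and its count was 6.51% to 6.62% of that of ANXA2 in untreated libraries and 6.34% to 6.62% with TGF-β1. It fell with ANXA2, by 0.52 on the log2 scale (edgeR adjusted p = 4.47e-16). Reads of the gene and of its copy may be mixed, and both values are uncertain to that extent. With the counts of all copies added, the log2 fold change of ANXA2 was -0.50. The copy ANXA2P1 had 107 counts and a log2 fold change of -0.62 ± 0.47 (edgeR adjusted p = 0.325).

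ANXA1 (ENSG00000135046, chromosome 9, 73151757 to 73170393, plus strand), a glucocorticoid-induced protein that dampens inflammation through formyl peptide receptors, had the largest decrease among the 4 annexins. Its level was 532.2, 539.8 and 536.1 CPM without TGF-β1 and 286.5, 312.5 and 311.7 CPM with it. The untreated libraries lay close together and well above the treated ones, among which replicate 1 was the lowest. This was a log2 fold change of -0.82 ± 0.03 (edgeR adjusted p = 4.54e-24), or 1.77-fold lower.

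ANXA6 (ENSG00000197043, chromosome 5, 151100712 to 151157882, minus strand) is a long annexin with a doubled core that acts in endocytosis and cholesterol traffic. It measured 273.6, 280.2 and 270.9 CPM without TGF-β1 and 305.3, 305.5 and 302.6 CPM with it, and the groups did not overlap. This was a log2 fold change of 0.15 ± 0.03 (edgeR adjusted p = 2.21e-04), and with library totals alone it was 0.028 and not called (adjusted p = 0.517).

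ANXA5 (ENSG00000164111, chromosome 4, 121667955 to 121697113, minus strand), the annexin used to stain phosphatidylserine on dying cells, measured 645.3, 637.1 and 630.4 CPM without TGF-β1 and 640.8, 662.0 and 654.4 CPM with it. The lowest treated library lay within the untreated range. With a log2 fold change of 0.033 ± 0.029 (edgeR adjusted p = 0.402), the 95% interval was -0.025 to 0.092. With library totals alone the value was -0.086 and called lower (adjusted p = 0.0148).

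**Figure D2:**
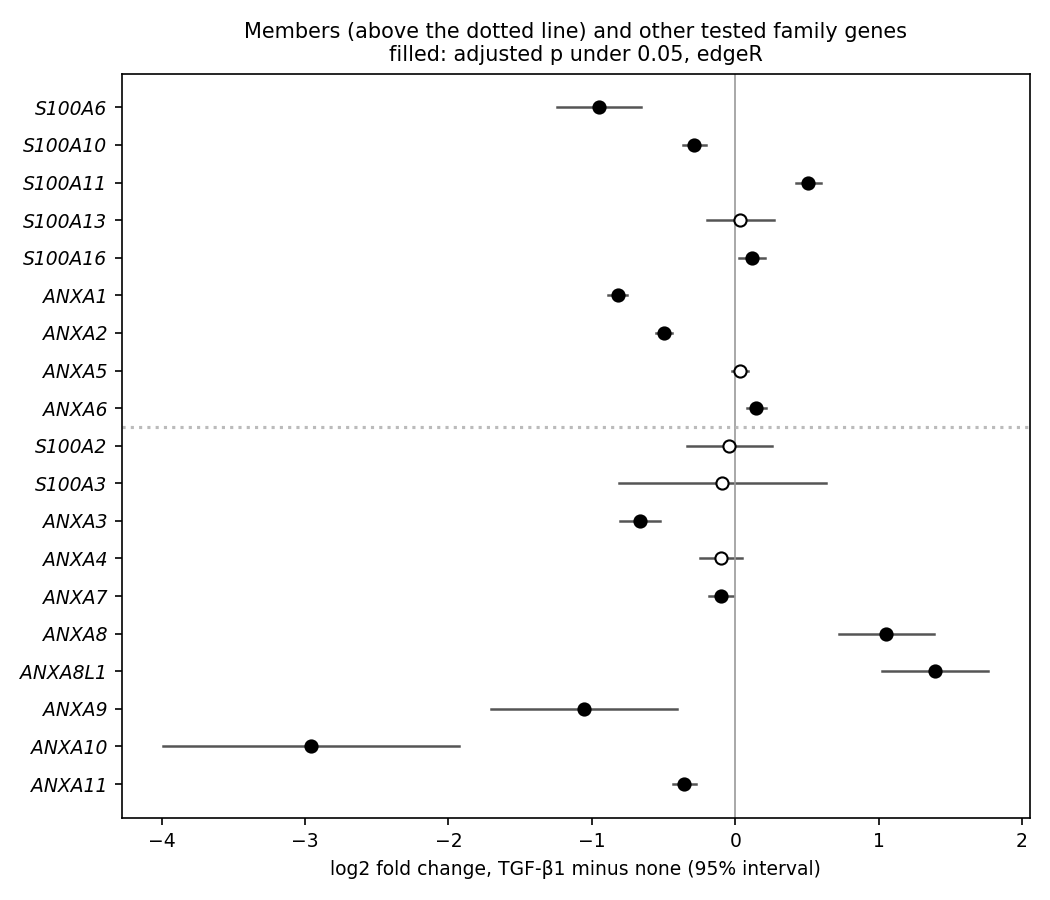
Log2 fold change (horizontal axis, TGF-β1 minus none) with its 95% interval for the 9 tested members, above the dotted line, and the 10 other tested genes of both families, below it. Filled points passed the edgeR test. ANXA10 lies farthest to the left (-2.96) and ANXA8L1 farthest to the right (1.39).

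Levels of different genes were compared per length, in deposited FPKM (fragments per kilobase of gene, scaled to library size). In untreated cells the order was ANXA2 (358.2 to 373.0 FPKM), S100A11 (210.5 to 220.4), ANXA5 (201.4 to 207.0), S100A6 (150.1 to 173.1), ANXA1 (113.6 to 114.6), S100A10 (94.6 to 96.5), S100A16 (64.9 to 68.7), ANXA6 (48.4 to 50.005), S100A13 (4.49 to 5.17) and S100A4 (0.30 to 0.64). No neighbours in that order overlapped on this scale. With TGF-β1, S100A11 (279.0 to 323.1 FPKM) came before ANXA2 (249.8 to 270.2) and ANXA5 (205.3 to 212.0). S100A6 (71.8 to 93.7), S100A10 (75.0 to 81.1) and S100A16 (66.4 to 76.7) then overlapped, and ANXA1 (61.1 to 66.6) overlapped with S100A16. ANXA6 (54.3 to 54.7) followed. The order rests in part on the length used, the exchange of S100A11 and ANXA2 included. The deposited length of ANXA2, 8824 bases, joins the exons of 38 annotated transcripts, while its principal transcript has 1676 bases. Per kilobase of the principal transcript, a setting chosen after seeing the data, ANXA2 stood at 1938 to 2028 normalised CPM per kilobase without TGF-β1 and 1353 to 1464 with it, and S100A11 at 247.6 to 260.2 and 328.5 to 380.8. On that scale ANXA5 (357.8 to 366.2) stood above S100A11 in untreated cells, S100A6 (223.7 to 257.6) overlapped with S100A11 and with ANXA1 (240.9 to 244.4), and ANXA6 (104.5 to 108.1) overlapped with S100A16 (99.4 to 104.8).

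The 6 S100 genes summed to 542.4, 528.5 and 558.8 FPKM in untreated libraries and to 503.2, 568.9 and 564.1 FPKM with TGF-β1, so the groups overlapped. The rise of S100A11 and the falls of S100A6 and S100A10 were of similar size on this scale. In normalised CPM, which does not divide by length, the S100 sums were 593.1, 579.0 and 605.0 against 523.1, 582.3 and 575.7, and these overlapped as well. The 4 annexins summed to 727.8, 741.0 and 733.3 FPKM without TGF-β1 and to 570.9, 603.4 and 593.1 FPKM with it, and these groups did not overlap.

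Ratios of members within a library do not depend on how libraries are scaled to each other; the pairs were chosen after their values were seen. The ratio of S100A11 to S100A6 in FPKM was 1.31, 1.41 and 1.27 without TGF-β1 and 3.89, 3.78 and 3.35 with it. For the binding pair ANXA1 and S100A11, the ratio of the annexin to its partner was 0.54, 0.54 and 0.52 without TGF-β1 and 0.22, 0.21 and 0.21 with it. ANXA2 and S100A10, which form the other complex, fell together, and their ratio changed less, from 3.71, 3.94 and 3.91 to 3.08, 3.42 and 3.49. In all 3 pairs the groups did not overlap. These are ratios of transcripts, and no protein was measured.

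**Figure D3:**
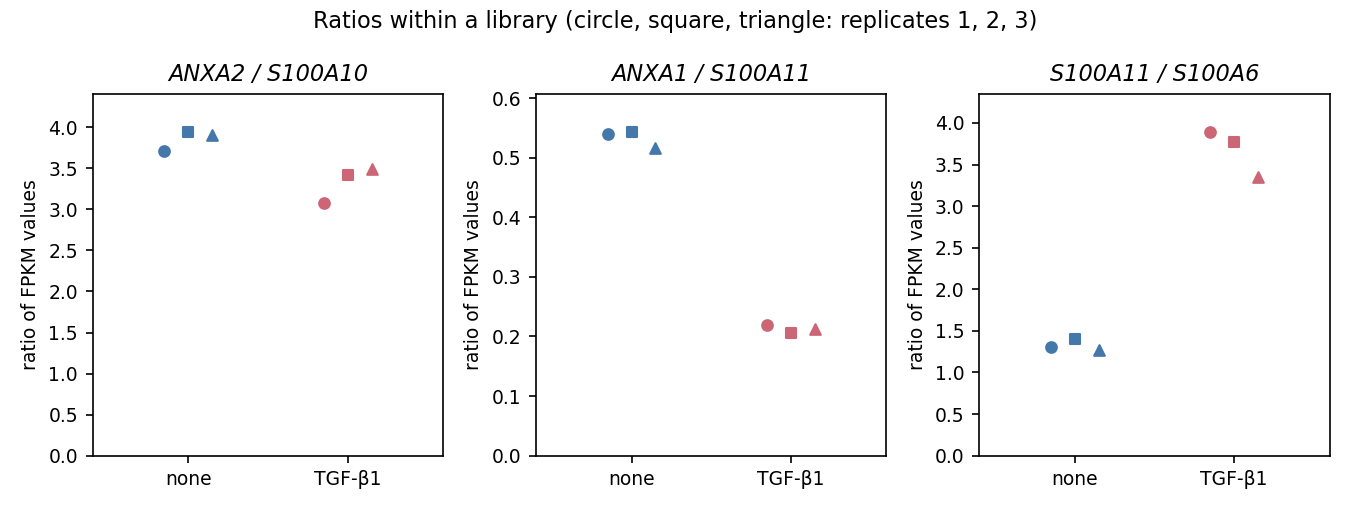
Ratio of FPKM values within each library (vertical axes from 0) for ANXA2 to S100A10, ANXA1 to S100A11 and S100A11 to S100A6, in untreated and TGF-β1 libraries. The S100A11 to S100A6 ratio is 1.27 to 1.41 without TGF-β1 and 3.35 to 3.89 with it.

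The 6 S100 members all lie on the minus strand of chromosome 1 within the S100 gene cluster, and members that moved in opposite directions are close neighbours there. Between the start of S100A10 and the end of S100A13 the table lists 89 genes, of which 11 were tested. Of these 11, 2 were higher and 3 lower, where 20.2% of all tested genes were called higher and 18.7% lower. The 2 that were higher are S100A11 and S100A16. Beside S100A10 and S100A6, the third that fell was TCHH, the gene of the hair follicle protein trichohyalin (a log2 fold change of -1.20 ± 0.27, edgeR adjusted p = 3.09e-04). The rest of the tested genes there were S100A13, S100A2, S100A3, FLG, HRNR and a long noncoding RNA, and none passed the test. The 4 annexins lie on chromosomes 9, 15, 4 and 5.

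Promoter sequence was taken from RefSeq (GRCh38.p14), which gave 14 windows for the 10 members, since some have several starts. In the 250 bases before each start, matches were searched on both strands for TGANTCA, bound by AP-1 factors, and for CAGAC, found in sites bound by SMAD factors, the transcription factors that carry the TGF-β signal. The AP-1 letters stood in 1 of the 14 windows (ANXA2), against 6.59% of 34943 windows of all genes. The SMAD letters stood in 8 windows, belonging to 6 members, against 38% of all windows. Members with a match included S100A10, which fell, and S100A11, which rose, and the S100A6, ANXA1 and ANXA5 windows held neither motif. A match is a description of the letters and not a binding site. The stretches outside annotated exons are shown for S100A11, the member with the largest rise, and for ANXA1 and ANXA2, the annexins that fell, with matches in capitals: chr1:152037036-152037254, minus strand, chr9:73151615-73151756, plus strand, and chr15:60398044-60398236, minus strand.
S100A11: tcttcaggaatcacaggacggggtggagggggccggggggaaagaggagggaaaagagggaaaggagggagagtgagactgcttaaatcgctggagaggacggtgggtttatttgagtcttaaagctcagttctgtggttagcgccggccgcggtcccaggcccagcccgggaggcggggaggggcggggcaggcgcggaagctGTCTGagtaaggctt
ANXA1: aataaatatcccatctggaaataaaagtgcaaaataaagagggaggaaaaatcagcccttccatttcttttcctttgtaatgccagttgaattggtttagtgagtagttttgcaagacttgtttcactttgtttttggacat
ANXA2: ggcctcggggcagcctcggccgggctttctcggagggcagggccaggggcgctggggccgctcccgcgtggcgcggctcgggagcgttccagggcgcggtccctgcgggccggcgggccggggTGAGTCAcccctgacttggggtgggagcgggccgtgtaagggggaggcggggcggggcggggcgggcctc
The S100A11 stretch holds the SMAD letters on the opposite strand 46 bases before the start. In the ANXA2 stretch the AP-1 letters begin 127 bases before the start.

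Of 15 other S100 genes, 2 were tested and 0 were called by edgeR's quasi-likelihood test, with 0 at an unadjusted p under 0.05 as well (0.783 for S100A2 and 0.802 for S100A3), and 0 by the DESeq2 Wald test. S100A2 stood at 6.63 ± 0.20 CPM without TGF-β1 and 6.45 ± 0.38 CPM with it (SD, n = 3), and S100A3 at 1.302 ± 0.63 and 1.23 ± 0.26 CPM. The neutrophil and monocyte genes S100A8, S100A9 and S100A12 had no counts in any library, and neither had S100A7, S100A7A, S100A7L2 and S100Z.

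The other annexins ranged more widely, from -2.96 to 1.39 on the log2 scale. The values outside the range of the members came from ANXA8, ANXA8L1, ANXA9 and ANXA10, which stood at lower levels than ANXA3, ANXA4, ANXA7 and ANXA11. Of 9 genes, 8 were tested, 2 were higher and 5 lower, with a median log2 fold change of -0.23, where the median of all tested genes was -0.0082. Of all tested genes, edgeR called 20.2% higher and 18.7% lower. ANXA3 went from 44.8 ± 2.12 to 28.3 ± 1.54 CPM (SD, n = 3), a log2 fold change of -0.66 (edgeR adjusted p = 5.92e-11), and ANXA11, a partner of S100A6 that links RNA granules to lysosomes, changed by -0.36 (edgeR adjusted p = 8.88e-10). ANXA10 had 46, 40 and 41 counts without TGF-β1 and 9, 3 and 2 with it, a log2 fold change of -2.96 ± 0.51 (edgeR adjusted p = 6.18e-06) that became -3.88 without TGF-β1 replicate 1. This gene passed the filter on low counts through the untreated libraries, in which it is high. ANXA9 stood at 1.95 ± 0.56 CPM without TGF-β1 and 0.93 ± 0.09 CPM with it (SD, n = 3), or -1.05 on the log2 scale. Its call was lost without untreated replicate 3 (edgeR adjusted p = 0.0550) and with limma fitted to unfiltered log2 FPKM (-0.43, adjusted p = 0.114).

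ANXA7 changed by -0.10 at the edge of the threshold (edgeR adjusted p = 0.0479, with a range of 2.02e-05 to 0.287 over the alternatives, most of which did not call it), and ANXA4 was not called (-0.10, 95% interval -0.25 to 0.05), except with library totals alone, where it was lower. ANXA8 rose from 5.87 ± 1.86 to 12.2 ± 1.03 CPM (SD, n = 3) and its near copy ANXA8L1 from 2.63 ± 0.56 to 6.91 ± 0.87 CPM, by 1.05 and 1.39 on the log2 scale. Their coding sequences are 99.5% identical, so how the reads divide between these 2 genes is uncertain.

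Other genes that work with S100 proteins and annexins were counted from lists. Each list below is to be read beside the share of all tested genes, of which edgeR called 20.2% higher and 18.7% lower. Of 17 tested intracellular binding partners, 5 were higher and 4 lower, with a median log2 fold change of -0.011. AHNAK, a giant scaffold protein held at the membrane by the annexin A2 and S100A10 complex, went from 3269, 3174 and 3164 CPM to 1934, 1806 and 1785 CPM, and all 3 treated libraries lay below the untreated ones. Its log2 fold change was -0.80 ± 0.03 (edgeR adjusted p = 1.14e-25). The non-muscle myosin heavy chain MYH9, the target of S100A4, rose by 0.53 and the ubiquitin ligase MDM2 fell by 0.33. Other called partners were KCNK3 (1.63), SUGT1 (0.28) and STIP1 (0.20), which rose, and PPFIBP1 (-0.33) and IQGAP1 (-0.14), which fell. CACYBP, the calcyclin-binding protein named for S100A6, had a value of -0.019 and was not called. With library totals alone this list gave 4 higher and 9 lower, where 11.7% of all tested genes were higher and 31.1% lower.

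Plasma membrane repair genes, another process in which annexins act, gave 5 higher and 7 lower of 17 tested, with a median of -0.067. The caveolin CAV1 went from 453.1, 432.4 and 452.0 CPM to 191.5, 188.4 and 183.6 CPM, with no overlap, a log2 fold change of -1.25 ± 0.03 (edgeR adjusted p = 1.69e-30). Myoferlin (MYOF), a membrane fusion protein, fell by 0.96 and the calpain protease CAPN2 by 0.52. The 5 that rose, each by less than 0.3, were CHMP4B and TSG101 of the ESCRT machinery, PDCD6IP, CAVIN1 and EHD2, of which TSG101 was close to the threshold (edgeR adjusted p = 0.0484) and was not called without any single library (0.0529 to 0.143). With library totals alone CHMP4B and CAVIN1 rose and 9 genes of the list fell, where 11.7% of all tested genes were higher and 31.1% lower.

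Plasmin can be formed at the cell surface on annexin A2 and S100A10. Of 5 tested genes of this system 2 rose and 2 fell, with a median of -7.21e-04. The tissue plasminogen activator PLAT went from 341.9, 343.4 and 335.2 CPM to 151.2, 146.2 and 153.2 CPM, a log2 fold change of -1.18 ± 0.03 (edgeR adjusted p = 3.56e-29). The urokinase gene PLAU rose by 0.39 and its receptor gene PLAUR fell by 0.30. Plasminogen itself (PLG) had 1 count in all and was not tested.

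Of 9 tested receptors for released S100 proteins and annexins, 3 were higher and 2 lower, with a median of 9.75e-04. Embigin (EMB) rose by 0.93, ALCAM by 0.30 and neuroplastin (NPTN) by 0.13 (not called with library totals alone), and basigin (BSG) fell by 0.19 and MCAM by 0.12. AGER, which encodes the receptor RAGE, was at 7.30 CPM in both groups. FPR2, the receptor of annexin A1, had no counts. Among 22 tested EF-hand proteins outside the S100 family, 7 were higher and 6 lower, with a median of 0.025. The myosin light chain MYL9 rose by 0.79 and sorcin (SRI) by 0.40, and EFHD2 fell by 0.38.

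**Figure D4:**
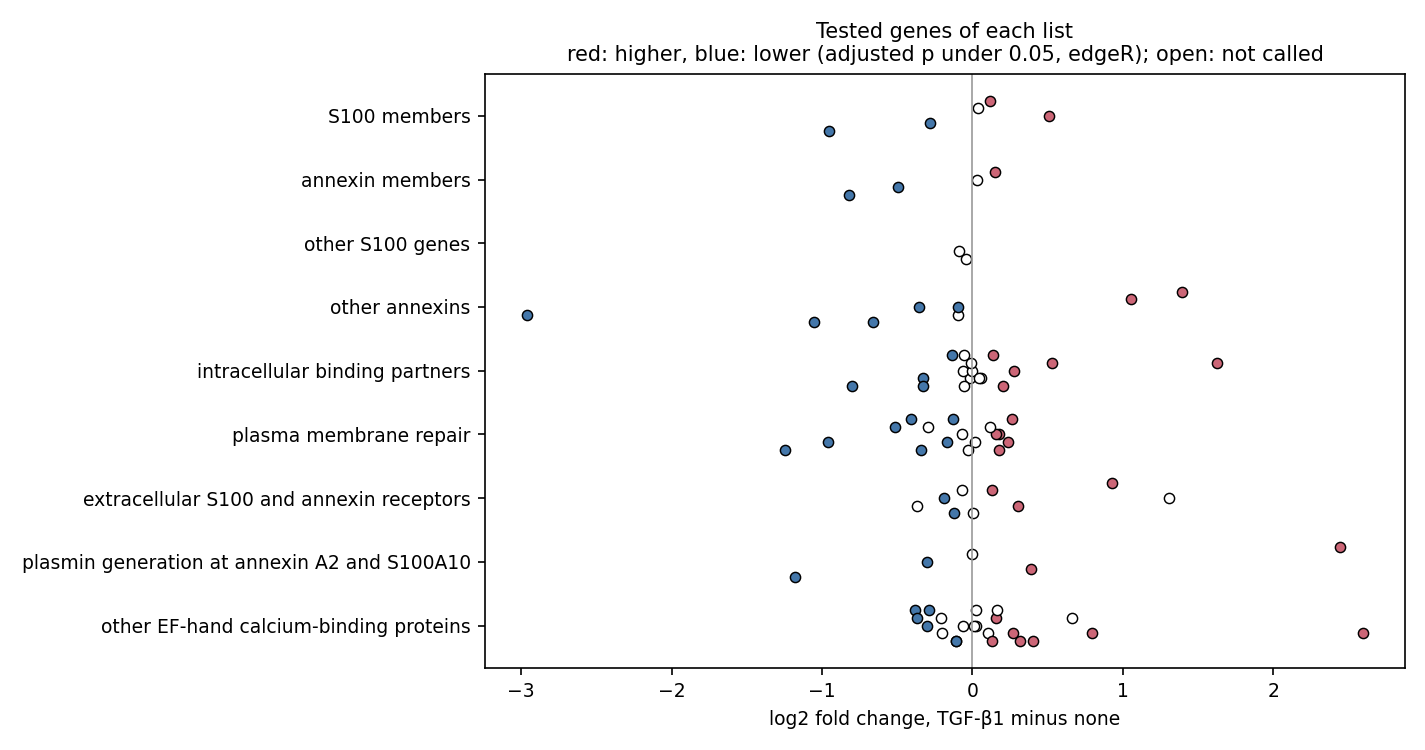
Log2 fold change (horizontal axis, TGF-β1 minus none) of each tested gene in the member groups and in the lists, 1 point per gene; vertical spacing within a list carries no value. Higher and lower calls are present in both member groups, with S100A6 (-0.95) and ANXA1 (-0.82) at the low ends.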

How the data were processed

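The authors deposited whole-number counts per gene, not normalized, and FPKM values. The submitters' processing notes name hg38, HISAT2 2.2.1 and fastp. Neither the counting tool nor its use of strand was stated in the sources used here. Deposited FPKM equalled counts over gene length and a single library size, 1.07 to 1.08 times the total in untreated and 0.984 to 0.987 times in TGF-β1 libraries. A further 6 per-sample columns of counts, and 6 of FPKM, matched no sample and were not used. All 58735 identifiers matched GENCODE release 29, which gave exon overlaps and transcript lengths. The members and lists were chosen with earlier results of these data known.

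Counts of genes passing filterByExpr (minimum count 10, minimum total 15) were tested with edgeR 4.0.16 (TMM, robust quasi-likelihood fit, two-sided, group as the only term) over all genes, and only the members and lists are printed. CPM values use TMM-scaled library sizes. SE is the absolute log2 fold change over the root of F, and 95% intervals use the t distribution of the fit. Intervals on counts cover counting error only. Named were all members, every other tested S100 gene and annexin, NSUN2, copies with at least 10 counts, and for each other list the 3 called genes of at least 5 CPM that changed most (if none was called, the 2 most abundant); list genes beyond these were chosen after their values were seen. Scripts were tested on simulated counts. Alternatives used limma 3.58.1, DESeq2 1.42.0, other scalings, filters and units, a replicate block and leaving out each library. Libraries of the same group differed beyond sampling noise (chi-square 3.52 to 4.58 per degree of freedom), and each counted as 1 replicate. Totals were 25828504 to 30034762 counts per library. Some genes counted in the lists are not reported here by name.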

Additional observations from a re-analysis of the deposited data

How the results depend on the processing

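S100A6, S100A10, S100A11, ANXA1 and ANXA2 kept their direction and their call under each of the 18 alternatives run for all members, and ANXA6 under 17 of them. With library totals alone ANXA6 was at 0.028, ANXA5 at -0.086 and S100A13 at -0.082, and S100A16 at -4.66e-04. With upper-quartile factors ANXA5 was at -0.012, S100A13 at -0.00861 and S100A16 at 0.073 and not called. S100A16 was also not called by the DESeq2 Wald test (0.12), limma-voom (0.12) or limma fitted to log2 FPKM (0.12 with pseudocount 1, filtered or not, and 0.12 with 0.1). Leaving out 1 library gave S100A16 values of 0.087 to 0.19, S100A13 values of -0.028 to 0.093, S100A2 values of -0.078 to 0.00598 and S100A3 values of -0.43 to 0.23. S100A3 was at 0.0057 with limma-voom and 0.035 with log2 FPKM and a pseudocount of 0.1. The number of higher S100 members was 1 with upper-quartile factors, library totals, DESeq2, limma-voom and all FPKM settings, and 1 to 2 without a library. Library totals alone gave 1 higher member, 0 higher annexin members, 9 lower binding partners and 2 higher repair genes. Under that scaling 11.7% of all tested genes were called higher and 31.1% lower. Lower calls among the other annexins numbered 3 with each FPKM setting and 3 to 5 without a library. The summed S100 members log2 ratio was -0.073 (TPM) and -0.080 (CPM), against 0.0057 in FPKM, and that of the annexins -0.40 (TPM) and -0.40 (CPM), against -0.32. Per kilobase of the principal transcript the log2 ratio of S100A11 to ANXA2 with TGF-β1 was -1.97, against 0.23 by the deposited length. The cause was not tested where a value moved.

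Replicate numbers are shared by the groups. Over all tested genes, deviations from the group mean had correlations of -0.00492, 0.011 and -0.00909 between same-numbered libraries. Between libraries with different numbers they were -0.022 to 0.026. With 3 libraries per group and counting noise in each gene, these values do not show whether same-numbered libraries shared a culture or batch. With the replicate block the members again gave 3 higher and 4 lower calls, S100A6 was at -0.96 and ANXA1 at -0.82, and 3431 genes rose and 3182 fell against 3471 and 3226 without it. Among the other genes named, ANXA7 (adjusted p = 0.0512) and TSG101 (0.0555) were then not called. Depth limits S100A4, with 48 counts in all.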
